A study of Mus musculus with 412 samples.

Results

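Among 325 colonic sensory neurons sequenced 1 by 1, 46 had fewer than 9500 genes with a value above 0 and are called few-gene neurons here. They all came from library plates 2 to 6, where they made up 14.4% of 320 neurons (exact Clopper-Pearson 95% interval 10.7 to 18.7%, counting error only). The other 274 neurons of these plates, with 9500 genes or more, are called many-gene neurons. The 5 neurons of plate 1 all had more genes and were not compared. Few-gene neurons were selected on the number of genes in the same table that is described below, so every difference is a description of the selected neurons and carries no test.

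The neurons came from C57BL/6J mice in which Fast Blue (FB), a dye carried back along axons, had been injected into the colon wall 3 to 10 days earlier. Dorsal root ganglia (DRG) were taken from T10 to L1, the thoracolumbar (TL) level, and from L5 to S2, the lumbosacral (LS) level, and dissociated, and FB-labelled cells were picked by hand with a pipette. No mouse or culture is named for a neuron, so few-gene and many-gene neurons each stand as 1 sample, plates serve as strata, and neurons are not replicates. All groups shared the same strain, tracer and dissociation.

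A sensory neuron keeps some RNAs, such as Malat1 and Meg3, mainly in the nucleus, while mRNAs for ribosomal proteins lie in the cytoplasm and those made from the mitochondrial genome stay inside mitochondria. Colonic afferents are mostly peptidergic nociceptors, which make calcitonin gene-related peptide and carry channels such as Trpv1 and Nav1.8. Satellite glia wrap the cell bodies of DRG neurons and can remain attached after dissociation. Lists of genes for each compartment and cell type were used to describe what each library held.

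Few-gene neurons held 6291 to 9487 genes (median 7974.5), against 9521 to 17193 (median 14022.5) in many-gene neurons. On either side of the limit, the nearest neurons had 9431 and 9487 genes (both LS) and 9521 and 9564 genes (a TL and an LS neuron), so no gap separated the groups. There were 28 TL neurons of 162 (17.3%, interval 11.8 to 24.0%) and 18 LS neurons of 158 (11.4%, interval 6.89 to 17.4%), and these intervals overlapped. By plate the share ran from 9.46% in plate 4 to 18.7% in plate 5, again with overlapping intervals.

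Few-gene libraries were also shallower. Reads recovered on genes ran from 417815 to 6191399 (median 1888952) in few-gene neurons and from 416007 to 12058968 (median 3155549.5) in many-gene neurons, and 41 of 46 lay below the many-gene median. The few-gene median was lower in all 5 plates, for example 1132879 against 2245165 in plate 4. Both groups were then thinned to 500000 reads, which left out 2 neurons on each side. Few-gene neurons still held 5939 to 8724 genes (median 7420.5) and many-gene neurons 8563 to 13530 (median 11886.5). The 46 neurons with the fewest genes at that depth included 44 few-gene neurons. The thinned counts come from the same values that chose the neurons, so this overlap is a description, and the part of depth was not tested.

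Neuronal identity was checked with 21 neuron markers, all of them in the table. Uchl1, a neuronal ubiquitin hydrolase, was at 600 to 6169 TPM in few-gene neurons (median 3578; TPM are the deposited values taken off the log scale and rescaled to a sum of 1000000 in each neuron) and at a median of 3579 TPM in many-gene neurons. Tubb3, the neuronal beta tubulin, was at 668 TPM or more in each few-gene neuron. Its medians were 4059 TPM in few-gene and 6956 TPM in many-gene neurons. Together the markers made up 0.317 to 3.60% of TPM (median 1.69%) in few-gene neurons and 0.731 to 3.77% (median 2.17%) in many-gene neurons, and 4 few-gene neurons lay below the lowest many-gene neuron. RNA of neurons was thus present in every library, but its summed share lay below the many-gene median in 38 of 46 few-gene neurons.

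For each gene the log2 ratio of mean TPM, with 1 added to each mean, was taken in each plate and averaged over the 5 plates, and the error given is the SD over plates. A gene was called when that mean was at least 1 in size, a 2-fold difference, with the same sign in every plate. The genes tested had a mean of at least 10 TPM over all 320 neurons, of which 274 were many-gene neurons, so a gene that was high in many-gene neurons passed this filter more easily than one that was high in few-gene neurons. Of 7392 such genes, 137 were called higher in few-gene neurons (1.85%) and 1391 lower (18.8%). The median over all genes was -0.40, and it lay between -0.43 and -0.30 in the individual plates. A gene at -0.40 thus lay at the median of all genes, and class values below are to be read against it. Of the 21 neuron markers, 8 were called lower (38.1%) and none higher. Centred on that median, 479 genes were called higher and 610 lower, so 44.0% of the calls were then higher, against 8.97% without centring. Of the genes called lower, 1363 (98.0%) were above 0 in at least 50% of the many-gene neurons, near the 98.8% of all genes tested.

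**Figure D1:**
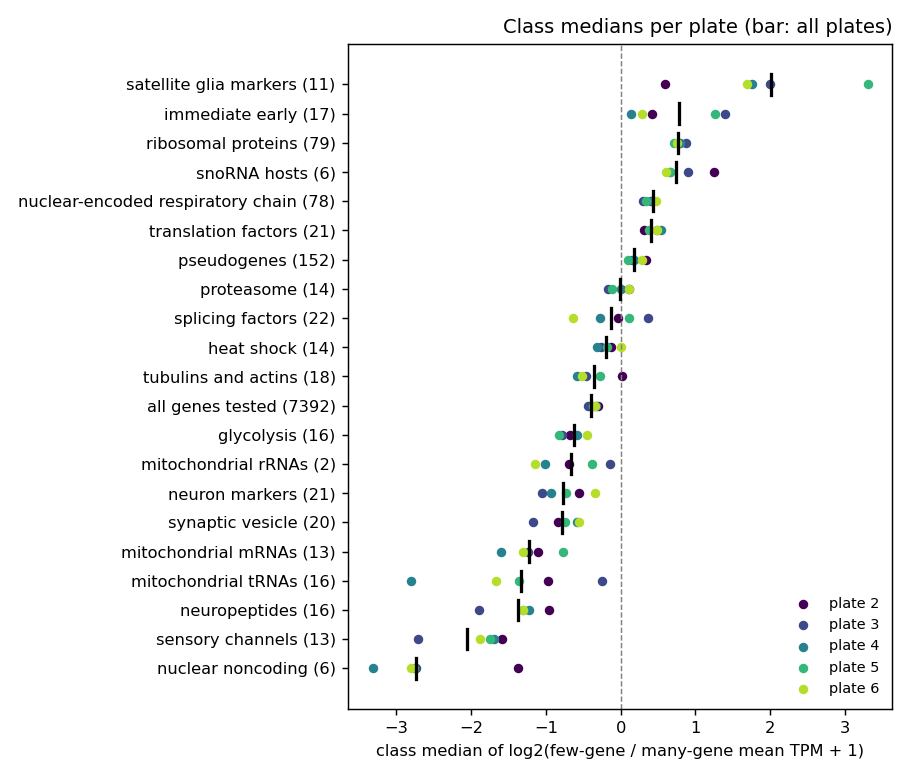
Median log2 ratio (few-gene over many-gene mean TPM, horizontal axis) for each transcript class, with 1 point per plate, a bar for all plates and the number of genes tested in parentheses. Ribosomal protein genes lie at 0.77 with plates from 0.72 to 0.88, while nuclear noncoding RNAs (-2.74), sensory channels (-2.05) and neuropeptides (-1.37) lie far below the median of all genes at -0.40.

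Nuclear noncoding RNAs had a median of -2.74 over the 6 of 17 in the table that reached 10 TPM on average. The filter bears on this value, since the median was -1.17 at a mean of 1 TPM and -0.72 with no filter. Meg3, Miat and Rian had few-gene means under 10 TPM and passed only through many-gene neurons. Of the 6, all but Malat1 were called lower (83.3%, against 18.8% of all genes). For Meg3, Miat and Rian a lower level was fixed by the filter, so this count is not a result. Meg3, an imprinted long noncoding RNA of the nucleus, was at 0 to 170 TPM in few-gene neurons (median 1.48) and at 0 to 381 TPM in many-gene neurons (median 111). It lay below the many-gene median in 45 of 46 few-gene neurons, although the groups overlapped, and its log2 ratio was -4.10 ± 1.54 (SD over 5 plates). Snhg11, on the list as a neuronal noncoding transcript, is labelled protein coding in the annotation used. It was at 0 to 332 TPM (median 19.1) against 0 to 720 TPM (median 263), with a log2 ratio of -3.21 ± 0.80. Miat, a nuclear RNA of neurons, was listed at 0 in 36 of 46 few-gene neurons and in 22 of 274 many-gene neurons (-2.69 ± 1.05). Rian, which lies downstream of Meg3, had medians of 4.04 and 12.8 TPM (-1.31 ± 0.58).

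Malat1, a nuclear RNA that most cells hold in large amounts, showed a split among few-gene neurons. Its median was 19.2 TPM in few-gene and 492 TPM in many-gene neurons, but only 29 of 46 few-gene neurons lay below the latter. One TL neuron of plate 2 reached 8811 TPM, and the mean log2 ratio was -0.01 ± 0.90, with 0.42 among TL and -1.94 among LS neurons. Without the neurons in the top 10% of a score over 14 satellite glia markers it was -2.08. The sixth tested RNA, Gm26917, had medians of 0.813 and 1077 TPM (-2.79 ± 1.21). Its annotated locus lies 11 bases from the rRNA gene CT010467.1 in the same stretch of chromosome 17. Whether its reads belong to ribosomal RNA was not tested, and shares are given without it below.

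Of the 11 nuclear noncoding RNAs under 10 TPM, Mirg and Firre had ratios of -1.62 and -1.17, Kcnq1ot1 of -1.01 and Ftx of -0.72. Airn, Jpx and Neat1 lay between -0.24 and 0.03. Pvt1 (0.53) and Dleu2 (0.91) were higher on average. Xist and Tsix were listed at 0 in all 46 few-gene neurons and in 261 and 267 of 274 many-gene neurons.

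Summed without Gm26917, nuclear noncoding RNAs made up 0.00210 to 0.940% of TPM in few-gene neurons (median 0.00959%) and 0.00193 to 0.314% (median 0.0939%) in many-gene neurons. Within plates the few-gene median was lower in each of the 5, from 0.00605% in plate 4 to 0.0567% in plate 3, where the many-gene median was 0.0828%. The few-gene neurons were not alike. In 26 of them the share was under 0.02% (56.5%, interval 41.1 to 71.1%), and the highest of these was 0.0159%. The next few-gene neuron was at 0.0267%. Among many-gene neurons 17 of 274 (6.20%, interval 3.66 to 9.75%) lay under 0.02%, a limit set after the values had been seen.

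**Figure D2:**
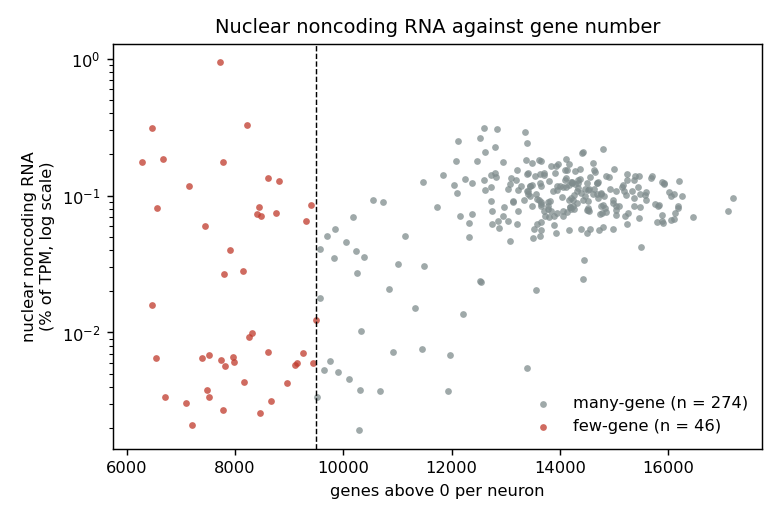
Nuclear noncoding RNA without Gm26917 as percent of TPM (vertical axis, log scale) against the number of genes above 0 (horizontal axis), with 1 point per neuron and a dashed line at 9500 genes. Under the line 26 of 46 neurons fall below 0.02%, and low shares continue to its right, mostly among neurons with fewer than 11500 genes.

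The low shares did not stop at the limit. Of 18 neurons with 9500 to 10500 genes 9 were under 0.02%, as were 4 of 11 neurons with 10500 to 11500 genes and 3 of 16 with 11500 to 12500 genes. Of 51 neurons with 12500 to 13500 genes 1 was under 0.02%, and none of the 86 with 13500 to 14500 genes or of the 92 with more.

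Meg3, Rian and several small RNA genes lie together in 1 imprinted region of chromosome 12, from 109541001 (start of Meg3) to 109749460 (end of Mirg; GRCm38). This region holds 100 genes of those deposited. Of these, 8 reached a mean of 10 TPM. All 8 had a few-gene mean below 10 TPM and passed only through many-gene neurons, so ratios below 0 were fixed by the filter and their number is not a result. Among them were Mir370, Mir411, Mir487b and Mir453, whose hairpins lie between the start of Meg3 and the end of Mirg. Not a single read fell on any of these 4 hairpins in the 46 few-gene neurons. The reads summed over many-gene neurons came to 427 on Mir370 and 392 on Mir411, where 116 and 81 of 274 neurons had at least 1. Mir453 had 575 reads in 117 neurons and Mir487b had 398 in 96. Mir138-2 (chromosome 8, 416 reads) and Mir7669 (chromosome 3, 373 reads) were also without reads in few-gene neurons. Mir138-2 and Mir7669 likewise had a few-gene mean of 0 TPM and passed only through many-gene neurons. A lower level at these 6 loci was thus fixed by the filter, and no fold difference is given. The libraries were made from polyadenylated RNA, so reads on a hairpin do not measure the mature miRNA. Mature sequences of the 4 miRNAs of the region, 1 arm each (RefSeq, GRCm38.p6, plus strand) are shown to mark these loci, with the seed (bases 2 to 8) in capitals.
mmu-miR-370-3p (chr12:109618305-109618326): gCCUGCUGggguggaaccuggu
mmu-miR-411-5p (chr12:109710190-109710210): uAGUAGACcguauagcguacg
mmu-miR-487b-5p (chr12:109727347-109727367): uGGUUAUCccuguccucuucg
mmu-miR-453 (chr12:109735669-109735692): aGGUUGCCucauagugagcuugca
No seed is shared between these 4 sequences. A further miRNA gene among the lowest called, Gm26233 on chromosome 6, had 1 read in few-gene and 922 in many-gene neurons. Gm26233 also passed the filter only through many-gene neurons.

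Transcripts of the mitochondrial genome were lower as well. The 13 mitochondrial mRNAs, which encode core subunits of the respiratory chain, all had ratios below 0 (median -1.22), and 9 were called lower (69.2%, against 18.8% of all genes). Their summed share was 0.0226 to 4.33% of TPM (median 0.541%) in few-gene neurons and 0.0436 to 6.21% (median 2.25%) in many-gene neurons. The few-gene median was lower in all 5 plates, for example 0.229% against 1.98% in plate 4. mt-Co1, a subunit of cytochrome c oxidase, was at 2.07 to 16713 TPM (median 1133) against 117 to 20381 TPM (median 8049), with a log2 ratio of -1.33 ± 0.34. mt-Nd5, a subunit of complex I, had medians of 323 and 1632 TPM (-1.52 ± 0.34). mt-Cytb (-0.90 ± 0.69) was not called, and 1 plate lay at 0.24. Among the rest, mt-Co3 was at -1.51, mt-Nd4l at -1.43, mt-Co2 at -1.31, mt-Nd1 at -1.25, mt-Nd4 at -1.22, mt-Nd6 at -1.18 and mt-Nd3 at -1.02. mt-Atp6 (-0.85), mt-Nd2 (-0.82) and mt-Atp8 (-0.51) did not reach a call. The 2 mitochondrial rRNAs, mt-Rnr2 and mt-Rnr1, had log2 ratios of -0.71 ± 0.41 and -0.62 ± 0.46 and were not called. The mt-Rnr2 medians were 6595 TPM in few-gene and 22555 TPM in many-gene neurons. The 16 mitochondrial tRNA genes tested, of 22 in the table, had a median of -1.33, with plates from -2.80 to -0.25. Of these genes 7 were called lower (43.8%, against 18.8% of all genes).

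By segment, the plate medians of the mitochondrial mRNAs averaged -0.93 ± 0.47 (SD over 5 plates) among TL neurons and -2.04 ± 1.07 among LS neurons. The difference between segments was not tested.

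Subunits of the same respiratory chain that are encoded in the nucleus were not lower. Of 78 tested 64 had a ratio above 0, with a median of 0.44 (0.30 to 0.48 by plate). Atp5k, at 1.09, was the only one called higher (1.28%, near the 1.85% of all genes). None was called lower, against 18.8% of all genes. They made up 1.54 to 13.5% of TPM (median 4.53%) in few-gene neurons and 1.23 to 7.19% (median 3.51%) in many-gene neurons. Atp5mpl, a small subunit of ATP synthase, had medians of 2930 and 1804 TPM (0.83 ± 0.04). Cox8a, of cytochrome c oxidase, had medians of 3089 and 2234 TPM (0.50 ± 0.07), and Ndufa4 of 3054 and 2494 TPM (0.39 ± 0.25). The medians of nuclear and mitochondrial subunits of this chain thus lay on opposite sides of 0, although 14 nuclear-encoded subunits were below 0 as well.

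Ribosomal protein mRNAs were higher as a whole class. All 79 had ratios above 0, from 0.29 to 1.18, with a median of 0.77, and 9 were called higher (11.4%, against 1.85% of all genes). Their share was 1.63 to 7.74% of TPM (median 3.58%) in few-gene neurons and 0.636 to 7.10% (median 1.98%) in many-gene neurons, and 4 of 46 few-gene neurons lay below the many-gene median. The plate medians differed by little, from 2.82 to 3.89% in few-gene and from 1.64 to 2.14% in many-gene neurons, and did not overlap. Rplp1, of the ribosomal stalk, was at 919 to 5596 TPM (median 2445) in few-gene and at 214 to 5168 TPM (median 1320) in many-gene neurons (0.88 ± 0.20). Rpl4, of the large subunit, had medians of 1136 and 699 TPM (0.63 ± 0.24). In recovered reads the Rpl4 medians were 1350.5 in the shallower few-gene and 1289 in many-gene libraries. Processed pseudogenes of ribosomal protein genes may take some of these reads.

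**Figure D3:**
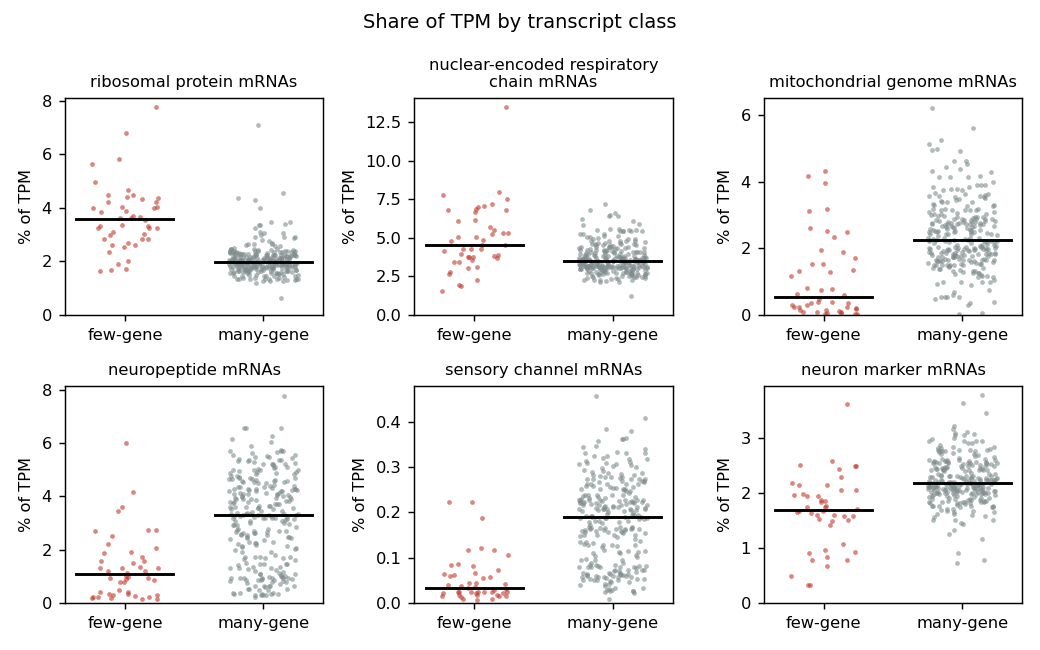
Percent of TPM in 6 transcript classes (vertical axis, from 0), with 1 point per neuron and a bar at the median, for 46 few-gene and 274 many-gene neurons. Ribosomal protein and nuclear-encoded respiratory chain mRNAs sit higher in few-gene neurons (medians 3.58 and 4.53%), the other classes lower, and the groups overlap in each.

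Other parts of the translation machinery lay on the same side. Of 21 translation factors 19 had ratios above 0 (median 0.41), without a call. Eef1a1, which brings aminoacyl-tRNA to the ribosome, had medians of 2337 and 1455 TPM (0.80 ± 0.19), Eif1, which helps select the start codon, of 625 and 395 TPM (0.72 ± 0.24), and Eif5a of 723 and 558 TPM (0.29 ± 0.07). The 6 snoRNA host genes tested, whose spliced RNAs leave the nucleus, all had ratios above 0 (median 0.74). Gas5 had medians of 131 and 68.2 TPM (0.94 ± 0.15). Snhg8 was called higher (49.5 and 29.3 TPM, 1.04 ± 0.43), which is 16.7% of the 6, against 1.85% of all genes. That call was lost without the glia-rich neurons described below. Over 103 long noncoding RNAs the median was -0.18, with Snhg8 called higher (0.971%) and 16 called lower (15.5%), near the 1.85 and 18.8% of all genes.

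The rRNA gene CT010467.1 took more TPM than any other gene in the medians, 199537 in few-gene and 132854 in many-gene neurons. Over all rRNA genes the share was 0.351 to 35.7% (median 20.0%) in few-gene neurons and 1.05 to 28.6% (median 13.3%) in many-gene neurons, and the few-gene median was higher in all 5 plates. Of the 2 rRNA genes tested, CT010467.1 was not called (0.55 ± 0.19). The other, n-R5s90, was called lower (-3.65 ± 1.44) but was listed at 0 in 45 of 46 few-gene and 158 of 274 many-gene neurons. Its few-gene mean was 1.53 TPM, so it passed the filter only through many-gene neurons and a lower level was fixed by the filter. Recovered reads on CT010467.1 had medians of 303722.5 and 313889.5. Among 152 pseudogenes the median was 0.18, with 14 called higher (9.21%) and 17 lower (11.2%). The 9 replication-dependent histone genes tested had a median of 0.31 and no call, and the 3 most abundant, Hist1h2bc, Hist1h1c and Hist1h4d, lay at 0.82, 0.45 and 0.21. Of 44 small RNA genes 11 were called lower (25.0%, against 18.8% of all genes) and none higher (median -1.5). These 44 include the miRNA genes above that passed the filter only through many-gene neurons. The 3 with the highest levels, Gm23935, Mir6236 and Gm24187, were at 0.47 to 0.57.

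Genes that mark colonic nociceptors were low in few-gene neurons. Of 24 sensory channel genes 13 were tested, and 10 of these were called lower, against 18.8% of all genes, and none higher. Their median was -2.05, and -1.68 for the list with no filter. Scn10a, which encodes Nav1.8, was at 0 to 264 TPM (median 12.5) in few-gene neurons and at 0 to 1216 TPM (median 156) in many-gene neurons, and 45 of 46 few-gene neurons lay below the many-gene median (-2.93 ± 0.78). Trpv1, the capsaicin receptor, had medians of 93.0 and 660 TPM (-2.05 ± 1.12) and was listed at 0 in 18 of 46 and 27 of 274 neurons. Together these genes made up 0.00596 to 0.223% of TPM (median 0.0340%) and 0.00914 to 0.456% (median 0.190%).

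Of 19 neuropeptide genes 16 were tested, and 13 of these were called lower, against 18.8% of all genes. Their median was -1.37, and -1.34 with no filter. Nts, which encodes neurotensin, had the highest ratio of all genes tested but was not called, since plates differed widely (2.83 ± 3.61). Calca, the gene of calcitonin gene-related peptide, was at 0 to 33330 TPM (median 5694) in few-gene neurons and at 0 to 46644 TPM (median 19196) in many-gene neurons (-1.34 ± 0.35). Calcb, its paralogue, had medians of 736 and 2068 TPM (-1.08 ± 0.54). Gal, which encodes galanin, had medians of 651 and 1711 TPM and was not called (-1.47 ± 1.46). The summed share of this list had medians of 1.08% in few-gene and 3.31% in many-gene neurons, and 42 of 46 few-gene neurons lay below the latter.

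Other neuronal and housekeeping lists lay closer to the median of all genes. Synaptic vesicle genes had a median of -0.79, with 7 of 20 called lower (35.0%), although the summed share had medians of 1.5 and 1.38%. Cplx1 and Rab3a, the named ones of them, lay at 0.02 and -0.34. Sncg, a synuclein of sensory neurons, had medians of 10991 and 9154 TPM (0.22 ± 0.17). Glycolysis genes had a median of -0.62, with Hk1 (-1.30), Pfkp (-1.33) and Gpi1 (-1.02) of 16 called lower, the same share as among all genes, and their share had medians of 0.767 and 1.2%. Hk1 and Pfkp are the entry enzymes of the pathway, hexokinase and phosphofructokinase. Pkm, pyruvate kinase, was at -0.81 ± 0.21. Tubulins and actins had a median of -0.36. Of 18, Tmsb4x, the actin-binding thymosin beta 4 (4346 and 2144 TPM, 1.04 ± 0.29), was called higher (5.56%, against 1.85% of all genes). Tubb4b (-1.40), Tubb2a (-1.30) and Tubb4a (-1.24) were called lower (16.7%, near the 18.8% of all genes). Tuba1a had medians of 4073 and 8233 TPM (-0.86 ± 0.46). Proteasome subunits lay at -0.01 with no call among 14. Splicing factors lay at -0.13 with Srrm2 (-1.11) the one called, lower, of 22 (4.55%, against 18.8% of all genes). Heat shock genes lay at -0.19 with Cryab (1.8) and Hspa1a (2.12) called higher among 14 (14.3%, against 1.85% of all genes). The median of Hspa1a was lower (1.2 and 4.75 TPM), and neither gene was called higher without the glia-rich neurons. Of 10 injury genes (median -0.16) Flrt3 was called lower (-1.89), 10% against 18.8% of all genes. Of 10 cell death genes (median -0.45) Trib3 (-2.10), Casp9 (-1.28) and Bid (-1.16) were called lower (30%, against 18.8% of all genes). Gadd45b was called higher (1.86 ± 0.41), 10% against 1.85% of all genes. The Gadd45b medians were 61.0 and 51.7 TPM, and without the glia-rich neurons its ratio was 0.54 with no call, while 1 gene of the list was called lower. Genes of these lists outside the 3 most abundant were singled out after their values were seen.

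The 7 markers that name the classes of colonic neurons were sparse. Trpa1, an irritant receptor, reached 10 TPM in 15 of 46 few-gene neurons (32.6%, interval 19.5 to 48.0%) and in 153 of 274 many-gene neurons (55.8%, interval 49.7 to 61.8%). Its log2 ratio was -2.34 ± 1.68. Mrgprd, a receptor of non-peptidergic neurons, reached it in 2 and 15 neurons, Hpse in 3 and 41, Fam19a1 in 6 and 32, Ntm in 7 and 41, Smr2 in 6 and 16, and Cbln2 in 6 and 11. These intervals cover counting error over single neurons, which are not replicates, and detection of each marker is part of the gene number that chose the neurons.

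Uts2b, a urotensin-like peptide, had the lowest ratio of all called genes (-5.83 ± 4.22), but it was listed at 0 in 41 of 46 and in 221 of 274 neurons. Mymk (-4.39), Spp1 (-4.13) and Mrgprd (-4.72) were likewise at 0 in most neurons of both groups. For such genes few neurons decide the ratio, and for Uts2b and Spp1 it was 0.088 and 0.13 among TL neurons alone. Mymk and Mrgprd had few-gene means of 1.54 and 0.642 TPM and passed the filter only through many-gene neurons. A lower level of these genes was thus fixed by the filter and is not a result.

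Ratios were lower for longer genes among those tested. With genes split into 5 equal groups by exonic length, the median log2 ratio was 0.05 in the shortest (under 2083 bases), then -0.31, -0.43 and -0.54, and -0.69 in the longest (6566 bases or more). Of about 1475 genes in each, 131 of the shortest (8.89%) and 449 of the longest (30.4%) were called lower, against 18.8% of all genes, and 56 and 14 were called higher. The median of the shortest group lay between 0.03 and 0.16 by plate and that of the longest between -0.75 and -0.55, so these did not overlap. By genomic span, introns included, the medians ran from -0.04 (under 6272 bases) to -0.71 (56778 bases or more). The summed TPM of the longest group by exonic length had medians of 3.98% in few-gene and 6.20% in many-gene neurons.

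**Figure D4:**
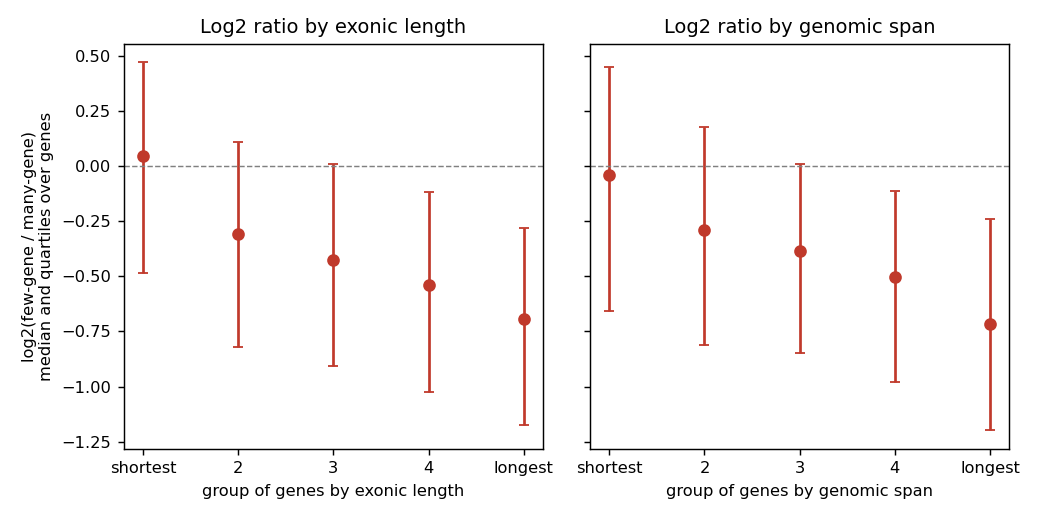
Median log2 ratio with quartiles over genes (vertical axis) in 5 equal groups of the genes tested, ordered by exonic length (left) and by genomic span (right). The median goes from 0.05 to -0.69 along exonic length and from -0.04 to -0.71 along span.

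The order did not rest on ribosomal protein, respiratory chain and mitochondrial genes. Among protein-coding genes without them the medians ran from -0.03 to -0.70. Longer genes also had lower levels, with a median of the mean TPM of 21.3 in the longest and 54.3 in the shortest group. Among genes of 20 to 50 TPM, split anew, the shortest group exceeded the longest by 0.59, against 0.74 over all. That difference depended on the filter, and was 0.26 at a mean of 1 TPM and 0.29 with no filter. Protein-coding genes with 1 block of exons (150) had a median of -0.18 and those with several (6730) of -0.42, but the former were shorter (2122 against 4086 bases in the median).

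The most abundant genes took a larger share of TPM in most few-gene libraries. The 10 most abundant genes held 16.0 to 40.6% of TPM (median 29.4%) in few-gene and 12.2 to 39.3% (median 23.7%) in many-gene neurons. For the 100 most abundant the medians were 48.4 and 42.2%, and for the 1000 most abundant 80.3 and 72.9%. For the first of these 3 few-gene neurons lay below the many-gene median, and for the next 1 did. All 46 few-gene neurons lay above the many-gene median for the last of these, which uses the same values as the selection.

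RNA of other cells was present in part of the libraries. Satellite glia markers made up 0.0127 to 10.6% of TPM in few-gene neurons (median 0.156%) and 0.00976 to 6.48% in many-gene neurons (median 0.134%). They exceeded 1% in 15 of 46 few-gene (32.6%, interval 19.5 to 48.0%) and 12 of 274 many-gene neurons (4.38%, interval 2.28 to 7.53%). All 11 markers tested had ratios above 0 (median 2.02) and 7 were called higher (63.6%, against 1.85% of all genes). Fabp7, a fatty acid binding protein of glia, was at 0 to 6585 TPM (median 83.7) against 0 to 5507 TPM (median 93.3), so its mean was higher (2.39 ± 0.62) while its median was not. Dbi, a carrier of acyl-CoA, was higher in both (medians 507 and 187 TPM, 2.02 ± 0.45), and Apoe, a lipid carrier, was not called (1.91 ± 1.33).

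Glial and nuclear RNA divided the few-gene neurons. Among the 26 with a nuclear noncoding share under 0.02%, 1 had more than 1% of satellite glia markers, neuron markers lay between 1.49 and 3.60%, and mitochondrial mRNAs were under 1% in 25. Among the other 20, glial markers exceeded 1% in 14 and reached 10.6%, neuron markers lay between 0.317 and 2.14%, and mitochondrial mRNAs were under 1% in 3. Ribosomal protein mRNAs covered much the same range in both, 1.89 to 6.79% and 1.63 to 7.74%. Genes above 0 also did, 6472 to 9487 and 6291 to 9405.

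**Figure D5:**
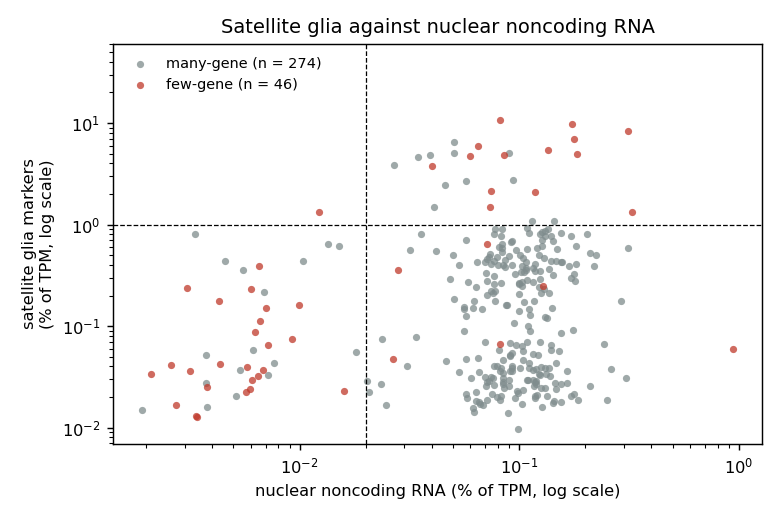
Satellite glia markers against nuclear noncoding RNA without Gm26917, both as percent of TPM on log scales, with 1 point per neuron and dashed lines at 1% and 0.02%. Of 46 few-gene neurons 25 lie at lower left and 14 at upper right, while most many-gene neurons lie at lower right.

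Without the neurons in the top 10% of the satellite glia score (15 few-gene and 17 many-gene), 53 genes were called higher (0.717%) and 1458 lower (19.7%), of which 25 and 1130 had been called in the same direction before. Mitochondrial mRNAs then had a median of -2.21, nuclear noncoding RNAs of -2.94 and ribosomal proteins of 0.90. The satellite glia markers turned to -0.50. The 10 genes with the highest ratios of all calls, Id3 (2.81), Angptl4, Zfp36l1, Ifitm3, Rarres2, Entpd2, Cavin1, Fxyd1, Fabp7 and Art3 (2.39), were no longer called higher, and Entpd2 and Rarres2 were called lower (-2.30 and -2.39). At first 6 of 17 immediate early genes were called higher (35.3%, against 1.85% of all genes), with a median of 0.78. Without the glia-rich neurons their median went to -0.29, with none called higher. Fos, an early response gene, had medians of 290 and 423 TPM against a mean ratio of 1.14 ± 0.27.

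One TL neuron of plate 3 had 2.64% of endothelial markers, with Cldn5, a tight junction protein of vessels, at 19217 TPM and neuron markers at 0.484%. The next few-gene neuron had 0.00952%, and Cldn5 was listed at 0 in the other 45. Schwann cell markers had medians of 0.0518% in few-gene and 0.0839% in many-gene neurons. Of 4 tested, Egr2 (1.67) was the one called, higher (25.0%, against 1.85% of all genes). Macrophage markers lay at 0.00103 and 0.00402%, with C1qb at 0 in 33 few-gene neurons. Fibroblast markers lay at 0.00442 and 0.00405% and red cell genes under 0.001% in both medians. The part of other cells, of depth and of the picking of each neuron in these differences was not tested.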

How the data were processed

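The table deposited by the authors holds log2 values of length-normalised expression for 325 of 399 labelled neurons, and the other 74 neurons and 13 bath controls were not analysed here. Per the submitters' processing notes, bcl2fastq 2.15.0.4, STAR 2.4.1 and featureCounts 1.4.4 were used with GRCm38.p3. Each value was turned into x = 2^value - 1 and rescaled to a sum of 1000000 per neuron (TPM). Reads were recovered from the values, as whole numbers within a relative tolerance of 1e-06 for 100% of values above 0, with exonic lengths of GENCODE M21 for 26057 genes and, for 8712, the smallest length that made the values whole. With annotated lengths 65.0% of values were whole, so the 100% is partly by construction. For 760 genes the length rests on 1 or 2 neurons, and totals may be too low. PCR reads without molecular identifiers are not independent molecules. Genes tested had a mean of at least 10 TPM, and 99.7% of them matched M21. Genes were named as the 10 highest and 10 lowest calls, all nuclear noncoding RNAs and mitochondrial mRNAs and rRNAs, the 3 most abundant members of other lists and 7 class markers. Some genes that this rule names are not reported here. The limit, classes and lists were chosen with earlier results of these data known. Scripts used Python 3.11.15, numpy 2.4.6 and scipy 1.17.1 and were tested on simulated data. A total of 22 alternatives were planned and 6 added after the data had been seen.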

Additional observations from a re-analysis of the deposited data

How the results depend on the processing

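No paired analysis was possible because no label pairs single few-gene with many-gene neurons, and ratios were taken within plates. Ribosomal protein and mitochondrial mRNA, nuclear noncoding and length results kept their direction under each alternative run for them. Genes called higher and lower numbered 222 and 1033 in CPM, 15 and 3948 from mean log2(TPM + 1), 96 and 601 at a pseudocount of 10, 242 and 3045 at a mean of 1 TPM, 44 and 451 at 50 TPM, 244 and 3140 with no filter, 479 and 610 after centring, 34 and 2705 from medians, 82 and 1493 in TL, 39 and 1423 in LS, 53 and 1458 without the top 10% of the glia score, and 51 and 1607 without the endothelial-rich neuron as well. Leaving out each plate gave 131 to 180 and 1374 to 1579.

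The ribosomal protein median of 0.77 moved to 0.62 (limit 8500 genes), 0.97 (CPM), 0.83 (without mitochondrial and rRNA genes), 0.71 (mean log), 0.69 (LS), 0.90 and 0.85 (both glia settings) and 1.17 (centred). The mitochondrial mRNA median of -1.22 moved to -2.02 (mean log), -0.88 (TL), -2.17 (LS), -2.21 and -2.28 (glia settings), -0.82 (centred) and -1.90 (medians). The nuclear noncoding median of -2.74 moved to -1.83 (pseudocount 10), -1.17 and -0.72 (1 TPM and no filter), -3.56 (LS) and -3.99 (medians). The length difference of 0.74 moved to 0.64 (limit 8500), 0.49 (pseudocount 10), 0.26 (1 TPM), 0.92 (50 TPM), 0.29 (no filter), 0.82 and 0.87 (glia settings), 1.01 (medians), 0.59 (20 to 50 TPM) and 0.66 (protein-coding without the 3 classes). The cause was not tested. Depth-matched many-gene neurons gave 148 and 1117 calls, and -1.42 for mitochondrial mRNAs.

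Among genes called, and lists whose median exceeded its SD over plates, the sign turned for immediate early genes (-0.31 from mean log, -0.29 and -0.66 in the glia settings, -0.39 from medians), satellite glia markers (-0.50, -0.72, and -0.33 from medians), Fos (-0.55, -0.63, -0.22), Art3 (-0.32, -0.53, -0.79), Fabp7 (-1.49, -1.41, -0.33), Entpd2 (-2.30, -2.30, -1.16), Rarres2 (-2.39, -2.32, -0.97), Angptl4 (-1.65 and -2.44, glia settings), Gadd45b (-0.27, medians), Zfp36l1 and Id3 (-0.13 and -0.22, second glia setting), Uts2b (0.088, TL) and Spp1 (0.13 in TL, 0.98 from medians).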
